A study of Mus musculus with 6 samples.

Results

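The EGF receptor family and its ligands were described in immortalized mouse fibroblasts (MF), with members chosen by gene symbol. Of these 9 genes, 8 were found among the 19078 genes of the deposited table: the receptors *Egfr*, *Erbb2* and *Erbb3* and the ligands *Areg*, *Ereg*, *Hbegf*, *Btc* and *Nrg1*. The ligand gene *Tgfa* was not analysed here. RNA was sequenced from 3 libraries of *Ms4a15* OE cells and 3 of control cells, all cultured in DMEM with 10% FBS. *Ms4a15* OE cells are a pooled line in which a CRISPR activation system and 1 guide raise transcription of *Ms4a15* from its own locus. The genotype of control cells is given as wild type in the labels, whereas the methods describe infection with an empty lentivirus. Both groups descend from embryonic fibroblasts that carry a conditional *Gpx4* allele and Cre-ERt2. The labels do not say whether the 3 libraries of a group came from separate cultures.

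The value given for each gene is the authors' mean, over all 6 libraries, of its read counts after division by a size factor that corrects for sequencing depth. It is named the mean normalized count here. As it pools *Ms4a15* OE with control cells, it is a level of the gene in these fibroblasts and holds no comparison of the groups, and no SD between replicates can be given. Summed over the table, these means come to 40991755. The guide target *Ms4a15*, on the reverse strand of chromosome 19 from 10978307 to 10993250 (GRCm38), had a mean normalized count of 638, which was not split between the groups here. The guide is shown because it defines the *Ms4a15* OE cells. It matched the RefSeq promoter of *Ms4a15* on the strand of the gene, from 130 to 111 bases before the start. The capitals mark the adjacent NGG motif read from that promoter.

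Ms4a15 guide: aaagactgaagcaagggactGGG

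Receptors of this family are tyrosine kinases of the plasma membrane that pair upon ligand binding and signal through RAS and MAPK, PI3K and AKT, and phospholipase C gamma. ERBB2 has no known ligand of its own and acts as a partner, and ERBB3 has a weak kinase and signals mainly in pairs. Most ligands are made as membrane proteins and are released by proteases of the ADAM family. AREG, EREG, BTC and HBEGF bind EGFR, some of them also ERBB4, and the neuregulin NRG1 binds ERBB3 and ERBB4.

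Among the receptors, *Erbb2* had by far the highest level in reads as the authors assigned them, and *Egfr*, *Erbb3* and *Erbb4* had low levels. To compare genes, the mean normalized count was divided by the length of all exons of the gene in kb. On this scale *Erbb2* had a level of 323 per kb, *Erbb3* 2.55, *Egfr* 1.76 and *Erbb4* 0.0143. The 95% counting interval, a Poisson interval on the summed counts that covers counting error only and not the spread between libraries, ran from 317 to 329 per kb for *Erbb2*, from 2.06 to 3.13 for *Erbb3* and from 1.46 to 2.10 for *Egfr*. For comparison, the median over the 14652 genes with an assigned length was 121 per kb, and it was 286 over those with a mean of at least 10. *Erbb2* was thus above the median of all genes and the other receptors were far below it.

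*Erbb2*, which encodes the partner receptor HER2, lies on chromosome 11 from 98412470 to 98437716 (GRCm38) and had a mean normalized count of 1682. Of all genes with a length, 65.9% had a lower level per kb. *Egfr*, the receptor of EGF itself, lies on the same chromosome from 16752203 to 16918158 and had a mean normalized count of 19.9. Its level per kb was above that of 23.2% of genes, but above that of just 0.583% of those that reach a mean of 10. *Erbb2* was 184 times the level of *Egfr* per kb, with a counting interval of this ratio from 154 to 223. The value of *Egfr* rests on 119 normalized counts summed over the 6 libraries. In the GENCODE annotation no exon of another gene overlapped the exons of *Egfr*. The authors counted on UCSC knownGene, and 2207 rows of the table, 11.6%, carry a transcript accession in place of a gene symbol. Whether any of these rows overlaps a gene of the family was not tested. Reads in such an overlap may be missing from the count of the gene, and the level of *Egfr* and its ratio to *Erbb2* hold for reads as the authors assigned them. The paper reports that phosphorylated ERK in *Ms4a15* OE cells was slightly sensitized to added EGF, depending on its concentration. A low count of *Egfr* therefore does not show that the cells lack the receptor, and receptor protein was not measured here.

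*Erbb3* lies on chromosome 10 from 128567523 to 128589652 and had a mean normalized count of 15.4. Its level per kb was 1.45 times that of *Egfr*, with a counting interval from 1.1 to 1.93 that reached below 1 with the longest transcript. Without division by length the order of these neighbours was the opposite. Of all genes 25.4% were lower than *Erbb3*, and 1.46% of those that reach a mean of 10. The fourth receptor gene, *Erbb4*, on chromosome 1 from 68032186 to 69108059, had a single read in 1 of the 6 libraries.

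Among the ligands, *Areg* and *Hbegf* were abundant, *Nrg1* and *Btc* intermediate and *Ereg* almost without reads. *Areg*, which encodes amphiregulin, had a level of 1430 per kb with a counting interval from 1403 to 1458, above that of 90.1% of genes. *Hbegf*, which encodes a heparin-binding ligand and lies on chromosome 18 from 36504927 to 36515805, had a level of 448 per kb. Its interval ran from 441 to 456, and 71.9% of genes were lower. With the length of the longest transcript in place of all exons its level was 750 per kb. *Areg* and *Hbegf* were the ligands above the median of all genes.

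*Nrg1*, a neuregulin gene on chromosome 8 from 31814551 to 32884029, had a level of 80.2 per kb, and *Btc*, the gene of betacellulin, one of 70.8 per kb. The ratio of these neighbours in the order was 1.13, with a counting interval from 1.07 to 1.19. It is larger than counting error, but the spread between libraries is not known for either gene. Of all genes 45.3% were lower than *Nrg1* and 44.2% lower than *Btc*, against 24.7% and 23.2% of those that reach a mean of 10. *Nrg1* has 18 annotated transcripts, and its level was 153 per kb with the length of the longest one. With the longest transcript of each gene, the ratio of *Nrg1* to *Btc* was 1.93, with a counting interval from 1.83 to 2.03.

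*Ereg*, which encodes epiregulin, had a level of 0.290 per kb with a counting interval from 0.118 to 0.592. It rests on 7 reads, 4 of them in 1 library, and was 0.158 without that library. Genes on the opposite strand cover 9.82% of the exon bases of *Egf*, 8.97% of those of *Nrg4*, 4.66% of those of *Nrg1*, 3.42% of those of *Ereg* and 0.173% of those of *Erbb2*, and reads from the opposite strand cannot be told apart where counting ignored strand. The other ligand genes of the family were low as well. *Egf* was at 5.00 per kb, *Epgn*, the gene of epigen, at 3.47, *Nrg2* at 2.56 and *Nrg4* at 0.0309. With the longest transcript *Egf* was at 11.8 and *Nrg4* at 0.0897. The pooled levels of *Epgn* and *Nrg2* had a ratio of 1.36 with a counting interval from 0.874 to 2.15, which includes 1. This ratio holds for the pool of libraries only, as reads of *Nrg2* ranged from 0 to 25 in a library. Without the library of 25 reads *Nrg2* was at 1.63. *Nrg3* was not analysed here. In bulk RNA of this kind, fewer cells that express a gene and less of its RNA per cell cannot be told apart.

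**Figure D1:**
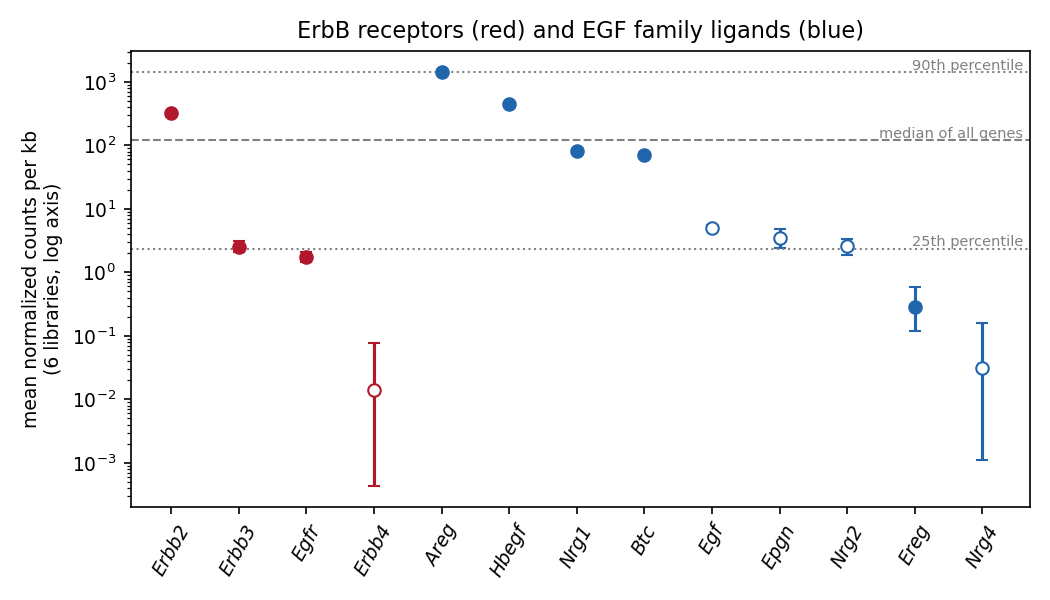
Mean normalized counts per kb of exon over the 6 libraries on a log axis, for ErbB receptors in red and EGF family ligands in blue. Filled points are the 8 genes chosen, open points other genes of the family, and bars the 95% counting intervals. Dashed and dotted lines give the median, 25th and 90th percentiles of all genes, and *Erbb2*, *Areg* and *Hbegf* sit above the median.

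By length, the 8 genes fell in the order *Areg*, *Hbegf*, *Erbb2*, *Nrg1*, *Btc*, *Erbb3*, *Egfr* and *Ereg*. Each step in this order was larger than counting error with the length of all exons. With the longest transcript the step from *Erbb3* to *Egfr* was not, at a ratio of 1.31 with a counting interval from 0.988 to 1.74. Of the 8 genes, 7 had a mean of at least 10 normalized counts, as did 67.7% of all genes in the table, and 3 had a level per kb above the median of all genes. The same 3 were above the median of genes with a mean of 10 or more.

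Of the ligand genes, 4 are neighbours. *Epgn*, *Ereg*, *Areg* and *Btc* lie within 376 kb of chromosome 5, from 91027464 to 91402994 (GRCm38), and none of the 3 other annotated genes between them was found in the table by symbol. *Epgn*, *Ereg* and *Areg* are on the forward strand and *Btc* is on the reverse strand. *Ereg* spans 91074622 to 91093646 and *Areg* 91139599 to 91148432. The level of *Areg* per kb was 4936 times that of *Ereg*, with a counting interval of the ratio from 2455 to 12590. This ratio rests on the same 7 reads of *Ereg*, 4 of them in 1 library, and holds for the pool of libraries only. Without that library *Ereg* was at 0.158 per kb in place of 0.290. Relative to *Btc* the ratio of *Areg* was 20.2, with an interval from 19.2 to 21.2, and relative to *Epgn* it was 412. Levels in this cluster ran from the highest among the ligands to one of the lowest.

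**Figure D2:**
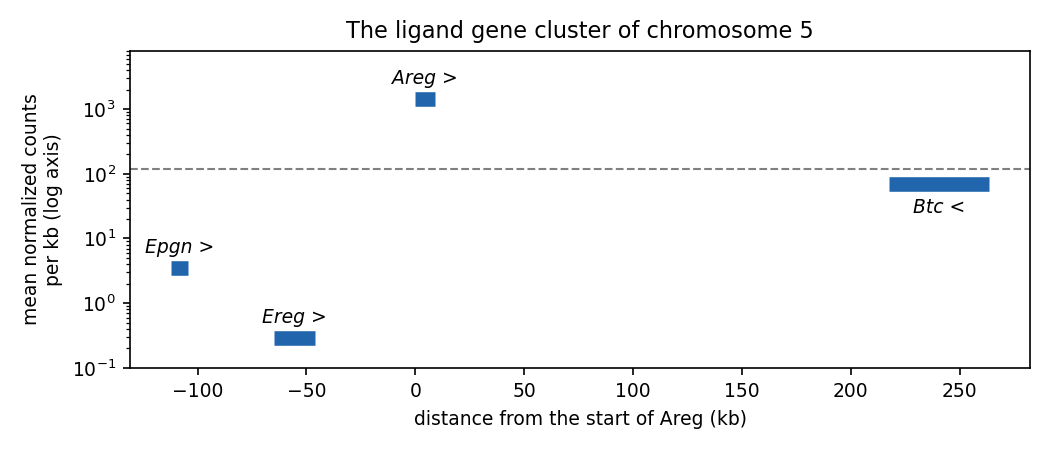
Position of the 4 ligand genes of chromosome 5, as distance in kb from the start of *Areg*, against mean normalized counts per kb on a log axis. Bars span each gene, arrowheads beside the names give the strand, and the dashed line is the median of all genes. *Areg* is above that line, and *Btc*, *Epgn* and *Ereg* are below it.

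Upstream sequences are shown for an abundant and a less abundant ligand of this cluster and for an abundant and a scarce receptor. Each holds the 250 bases before the transcription start in RefSeq (GRCm38.p6), read 5′ to 3′ on the strand of the gene. Capitals mark matches on either strand to TATAAA, to GGGCGG (the GC box), to TGACGTCA (the cAMP response element) and to TGANTCA (the AP-1 site). No match overlapped another. The last bases of the *Erbb2* window lie inside the gene as GENCODE annotates it, whose start is upstream of that in RefSeq. The windows are chr5:91139349-91139598 on the forward strand for *Areg*, chr5:91402995-91403244 on the reverse strand for *Btc*, and chr11:98412234-98412483 and chr11:16751953-16752202, both on the forward strand, for *Erbb2* and *Egfr*.

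Areg: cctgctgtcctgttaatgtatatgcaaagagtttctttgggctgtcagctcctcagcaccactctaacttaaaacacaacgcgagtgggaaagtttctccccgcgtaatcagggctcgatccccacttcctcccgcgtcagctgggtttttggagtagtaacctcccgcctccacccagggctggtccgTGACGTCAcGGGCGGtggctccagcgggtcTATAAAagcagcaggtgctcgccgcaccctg

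Btc: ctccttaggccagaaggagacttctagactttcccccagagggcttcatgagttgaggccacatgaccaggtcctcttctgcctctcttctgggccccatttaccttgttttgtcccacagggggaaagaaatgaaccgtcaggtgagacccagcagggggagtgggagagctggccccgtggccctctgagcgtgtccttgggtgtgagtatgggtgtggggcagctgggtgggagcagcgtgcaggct

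Erbb2: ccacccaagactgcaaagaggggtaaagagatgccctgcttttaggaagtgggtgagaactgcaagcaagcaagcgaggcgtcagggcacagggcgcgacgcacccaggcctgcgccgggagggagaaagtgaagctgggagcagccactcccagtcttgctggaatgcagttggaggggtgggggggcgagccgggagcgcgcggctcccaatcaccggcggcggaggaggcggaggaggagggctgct

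Egfr: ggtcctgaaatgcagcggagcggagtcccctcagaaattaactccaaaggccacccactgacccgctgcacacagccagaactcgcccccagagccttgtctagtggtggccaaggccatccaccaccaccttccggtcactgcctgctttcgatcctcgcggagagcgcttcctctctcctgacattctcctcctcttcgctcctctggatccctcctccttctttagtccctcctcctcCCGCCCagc

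In the window of *Areg*, TGACGTCA began 61 bases before the start, GGGCGG 52 bases and TATAAA 31 bases before it. TGACGTCA is found in 1.55% of the 32851 windows of this length, TATAAA in 12.4% and GGGCGG in 32.7%. The window of *Egfr* held a match to the GC box on the opposite strand, 9 bases before the start. The windows of *Btc* and *Erbb2* held none of the 4 motifs. TGANTCA, present in 6.75% of windows, was in none of the windows shown. *Erbb2* had the highest GC content of these at 66.0%, *Egfr* had 60.8%, *Btc* 59.6% and *Areg* 57.2%, against a median of 52.4% over all windows. CpG dinucleotides numbered 16 in *Erbb2*, 15 in *Areg*, 11 in *Egfr* and 4 in *Btc*, and the median was 6. GC content did not order these genes by level. A match of letters describes the sequence and does not show that a factor binds there.

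In the lists described here, which are not complete, most genes of ligand release and of receptor signalling had levels above the median of all genes. Since each of them reached a mean of 10, they are also set beside the higher median of genes that did so. Of 6 genes of ligand shedding, 5 had a level per kb above the median of all genes and 4 above that higher median. *Adam10* was highest at 2543 per kb, followed by *Adam9* at 1960 and *Adam17*, which cleaves amphiregulin and other ligands, at 650. *Adam12* was at 396 and *Rhbdf1* at 282. *Rhbdf2* was the exception at 3.0, and its product, like that of *Rhbdf1*, is a rhomboid-like protein that helps ADAM17 to mature. With the longest transcript *Adam17* was at 1041 per kb.

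All 23 genes of adaptors and effectors described here were found, 20 were above the median of all genes and 17 above the higher median. *Akt1* was highest at 3765 per kb, followed by the kinase gene *Mapk3* at 1949 and the adaptor gene *Grb2* at 1597. Lowest were *Pik3r1*, a regulatory subunit of PI3K, at 119, the docking protein gene *Gab2* at 107 and *Plcg2* at 65.9. *Plcg2* encodes a phospholipase C isoform. With the longest transcript *Akt1* was at 5735 per kb, and 21 of the 23 genes were above the median of all genes. *Hras* is listed under its older symbol *Hras1*.

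All 10 genes of receptor inhibition and degradation reached the minimum mean of 10, and 7 were above the median of all genes per kb. Above the higher median were 5 of 10, the share that a median gives by definition. *Usp8*, a deubiquitinase that acts on internalized receptors, was at 1032, *Lrig1*, which lowers receptor levels at the membrane, at 710 and *Socs5* at 557. Lowest were the ubiquitin ligase gene *Cblb* at 105, *Lrig3* at 84.5 and *Lrig2* at 12.8. With the longest transcript these were at 165.2, 176 and 21.1, and 9 of 10 genes of the list were above the median of all genes, which was then 164.6 per kb.

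Of 15 feedback and target genes, 12 were above the median of all genes, but 8 above the higher median. *Ier3* was at 4894 per kb, *Myc* at 3510 and the AP-1 gene *Fosl1* at 3055. *Spry4*, *Fos* and *Spry1* were lowest, at 29.2, 19.2 and 16.9. *Spry1* and *Spry4* encode Sprouty inhibitors of the RAS pathway. The median level was 427 per kb in this list, 520.0 in adaptors and effectors, 523 in sheddases and 260 in inhibitors, against 2.16 over the 4 receptors and 5.00 over the 9 ligands found. The median of the inhibitors is below that of 286 for genes with a mean of 10 or more. With the longest transcript the medians were 838 in adaptors and effectors, 794 in sheddases, 469 in this list and 326 in inhibitors. They were then 11.8 in ligands and 2.25 in receptors, and the median of all genes was 164.6 per kb.

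The label of the cells was checked against markers. *Vim*, *S100a4* and *Sparc* had levels of 24275, 22015 and 12184 per kb, and 9 of 10 fibroblast markers were above the median of all genes. The remaining one was *Pdgfra* at 27.7, and *Thy1* and *Pdgfrb* were at 365 and 393. None of 10 epithelial markers was above the median, and *Epcam* and *Esrp1* each had a total of 1 read over the 6 libraries. *Krt14*, the most abundant, was at 96.9 per kb, *Grhl2* at 8.83, *Krt8* at 5.56 and *Cldn4* at 0.200. The mean normalized counts of the epithelial list summed to 262, against 498146 for the fibroblast list. Of 7 myeloid markers found, *Lyz2* at 405, *Cd14* at 216 and *Cd68* at 131 were above the median of all genes, and *Lyz2* also above the higher median, while *Itgam* was at 1.15, *Ptprc*, the pan-leukocyte marker, at 0.608 and *Fcgr3* at 0.0845. The 6 endothelial markers ranged from 0.0382 for *Tie1* to 25.3 for *Cdh5*, with *Pecam1* at 2.56, *Tek* at 0.293, *Kdr* at 0.151 and *Emcn* at 0.0557. With the longest transcript *Vim*, *Sparc* and *Thy1* were at 39349, 20066 and 629, and 9 of 10 fibroblast markers were again above the median. *Cd68*, at 134, was then below the median of all genes, which was 164.6 per kb. On this scale *Grhl2* was at 15.4, *Ptprc* at 1.94, *Pecam1* at 4.63, *Kdr* at 0.230 and *Emcn* at 0.0856. The part of other cells in the levels of receptors and ligands was not tested.

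**Figure D3:**
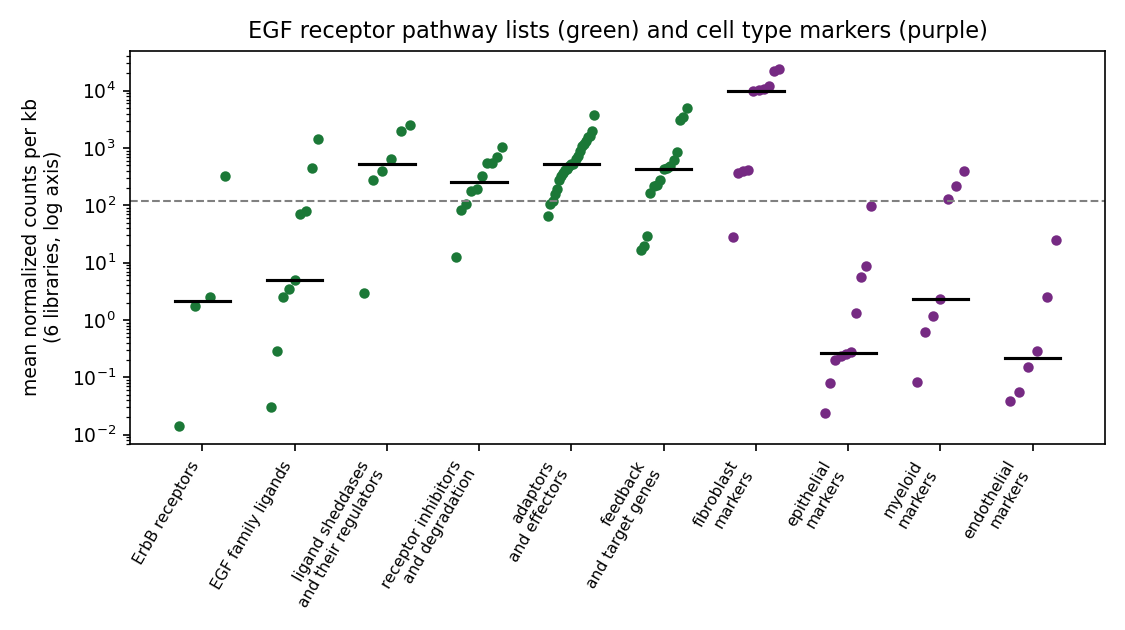
Mean normalized counts per kb of exon over the 6 libraries on a log axis, 1 point per gene, for the lists of the EGF receptor pathway in green and of cell type markers in purple. Black lines are list medians, and the dashed line is the median of all genes. The medians of receptors and ligands, 2.16 and 5.00, lie below the dashed line, and those of the 4 other pathway lists lie above it.

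For genes with few reads, the number of reads in each library could be recovered. A mean of counts divided by 6 size factors is a sum of 6 known steps, each taken a whole number of times, and at low values a single set of whole numbers gives the digits of the table. The steps were read from the commonest lowest means, each that of 1 read in all. They gave size factors of 0.887, 0.938, 0.946, 1.02, 1.11 and 1.14, and the libraries are here named a to f in that order. No label ties these libraries to *Ms4a15* OE or control, so values are given for each library and the groups are not compared.

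*Ereg* had 7 reads in all, with 1, 2, 0, 4, 0 and 0 in a to f. *Epgn* had 37 reads and was detected in every library, with 6, 7, 10, 4, 4 and 6 reads in a to f. *Nrg2* had 51 reads, with 0, 1, 14, 0, 25 and 11 in a to f. The single read of *Erbb4* was in library c and that of *Nrg4* in library a. Library counts of *Egfr* and *Erbb3* could not be fixed, since 19 sets of whole numbers gave the mean of *Egfr* and 6 that of *Erbb3*. Over these sets the total was from 111 to 129 reads for *Egfr* and from 87 to 98 for *Erbb3*.

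**Figure D4:**
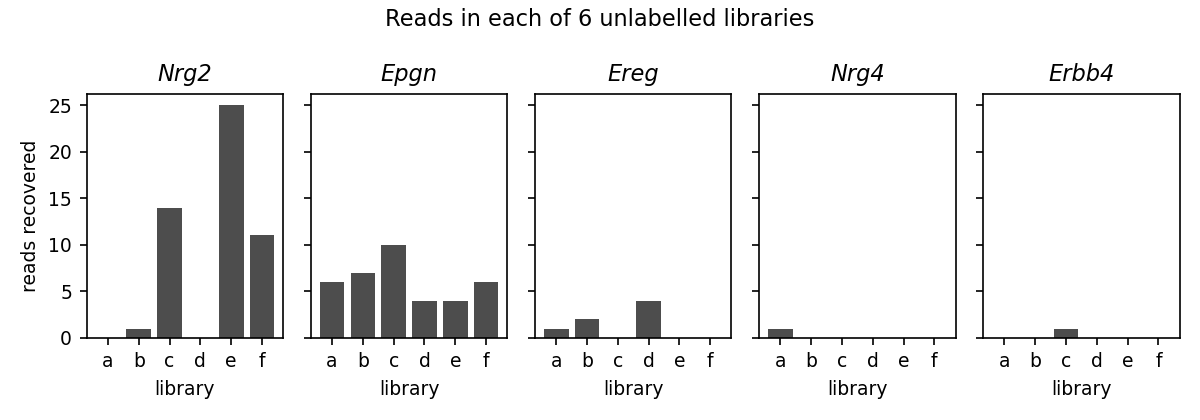
Reads recovered in each of the 6 libraries, a to f in order of size factor, for the 5 genes of the family whose mean allowed a single set of whole numbers. Bars start at 0, and the libraries carry no group label. *Nrg2* ranged from 0 to 25 reads in a library, *Epgn* from 4 to 10 and *Ereg* from 0 to 4.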

How the data were processed

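Poly(A)-selected RNA from 6 libraries was sequenced in paired-end runs. According to the methods, the authors aligned reads to mm10 with STAR and HTSeq-count gave reads per gene, although the submitters' processing notes name TopHat. The signal used here is the mean of size-factor-normalized counts over every library, as deposited by the authors from DESeq2. The other 5 columns hold the authors' own comparison of the groups, namely fold change, its standard error, p-values and direction, and were not used. Without values of single libraries in labelled groups, the planned test between *Ms4a15* OE and control was not run. Total reads per library were not used here.

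Exon lengths and positions came from GENCODE M21 (GRCm38), matched by symbol for 76.8% of genes, and upstream sequences from RefSeq. The labels describe strand-specific libraries, but whether counting used strand is not given in the sources used here. Counting intervals are exact Poisson intervals at 95% on the mean times 6, and intervals of ratios are exact binomial (Clopper-Pearson). Reads per library were accepted where exactly 1 set of whole numbers met the digits in the file, as for 451 of 451 distinct means under 3 that were tried, and the procedure was tested on simulated data. The genes named are all receptors and ligands, the 3 highest and 3 lowest of each other list, *Ms4a15*, and *Hras* for its symbol. Some genes of the list of adaptors and effectors are not reported here and were left out of its counts and median. Members and lists were chosen with earlier results of these data known. Lengths of the longest transcript, no length, a minimum mean of 10 and a wider tolerance were tried as alternatives. Python 3.11.15, numpy 2.4.6, scipy 1.17.1 and matplotlib 3.10.9 were used.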

Additional observations from a re-analysis of the deposited data

How the results depend on the processing

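With the length of the longest transcript in place of all exons, the level per kb became 336 for *Erbb2*, 750 for *Hbegf*, 79.5 for *Btc* and 153 for *Nrg1*, because these genes have exons that the longest transcript lacks. Of 100 listed genes, 28 then had a level over 1.5 times as high. *Egfr*, at 1.95, stayed within its counting interval, and all 8 genes kept their place in the order, but the step from *Erbb3* to *Egfr* was then within counting error (ratio 1.31, interval from 0.988 to 1.74). Of adaptors and effectors 21 of 23 and of myeloid markers 2 of 7 were then above the median of all genes, and the median of ligands was 11.8 (counts chosen after seeing the data). Without division by length 4 of 8 genes kept their place, and *Hbegf* with *Areg* and *Egfr* with *Erbb3* changed places. With lower genes left out of the ranking (minimum mean of 10), 0.583% were lower than *Egfr* and 86.4% lower than *Areg*. With a tolerance 10 times wider, 206 sets of whole reads met the mean of *Egfr* and 41 that of *Erbb3*, and *Erbb4*, *Ereg*, *Epgn*, *Nrg2* and *Nrg4* kept 1 set. With each library left out in turn, chosen after seeing the data, *Ereg* ranged from 0.158 to 0.348 per kb, and *Erbb4* and *Nrg4* fell to 0 without the library of their single read. The test between groups was not run. Other tools, filters, pseudocounts, libraries left out and a replicate block were therefore not tried for it. No paired analysis was possible because the values used pool all 6 libraries. Order and level hold for the pool of *Ms4a15* OE and control cells only, and the spread between libraries is unknown for genes with many reads.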

Other observations

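Reads of *Nrg2*, a neuregulin gene, ranged from 0 to 25 over the libraries, which carry no group label. Whether the spread of the few reads of *Ereg*, the epiregulin gene, exceeds counting error was not tested. *Nrg2* had 0 reads in library a, 1 in b, 14 in c, 0 in d, 25 in e and 11 in f. *Ereg* had 1 read in library a, 2 in b, 0 in c, 4 in d, 0 in e and 0 in f. *Epgn* had 6, 7, 10, 4, 4 and 6 in a to f. Size factors ranged from 0.887 in library a to 1.14 in library f. No group was assigned from these values, and whether they fall into separate clusters was not tested.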
